A study of Mus musculus with 9 samples.

Results

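Skeletal muscle genes were followed in mouse embryonic fibroblast (MEF) cultures through 10 of the 43629 genes of the count table: *Pax7*, *Myf5*, *Myod1*, *Myog*, *Des*, *Acta1*, *Myh3*, *Mylpf*, *Tnnt1* and *Chrna1*. They were chosen as factors that make muscle or as parts of the contracting fibre and its synapse, with earlier results of these data known. RNA sequencing covered 9 cultures, 4 from WT and 5 from Dp1Tyb embryos, all given the strain name C57BL/6J.129P2 in the labels. Dp1Tyb mice carry Dp(16Lipi-Zbtb21)1TybEmcf, a duplication on chromosome 16 that runs from *Lipi* to *Zbtb21*, and none of the 10 genes lies on that chromosome. The cells came from E14.5 littermates whose heads and viscera had been taken off, so the trypsinised carcass held muscle, skin and cartilage as well as connective tissue, and they were grown for 2 passages before RNA was taken.

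Skeletal muscle forms when precursors marked by Pax7 switch on Myf5 and MyoD, a pair of transcription factors that commit the cell to muscle. Myogenin, the product of *Myog*, then drives the cell to stop dividing, fuse and build sarcomeres from actin, myosin, troponin and the linking filament desmin. Acetylcholine receptors such as the alpha subunit encoded by *Chrna1* let the fibre answer its motor nerve. The transcription factors bind E-boxes, and genes for contractile proteins are often also served by CArG boxes, the sites of serum response factor.

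The 250 bases before the RefSeq start (GRCm38.p6) are given for the 5 genes on which the results turn, because both kinds of motif can be read in them. Capitals mark every E-box, CANNTG, and the one CArG box, each searched on both strands and the 2 kinds do not overlap here. The *Myog* window is chr1:134289754-134290003 on the plus strand, the *Des* window chr1:75360042-75360291 on the plus strand, the *Acta1* window chr8:123894776-123895025 on the minus strand, the *Myh3* window chr11:67078050-67078299 on the plus strand and the *Chrna1* window chr2:73580339-73580588 on the minus strand.
Myog: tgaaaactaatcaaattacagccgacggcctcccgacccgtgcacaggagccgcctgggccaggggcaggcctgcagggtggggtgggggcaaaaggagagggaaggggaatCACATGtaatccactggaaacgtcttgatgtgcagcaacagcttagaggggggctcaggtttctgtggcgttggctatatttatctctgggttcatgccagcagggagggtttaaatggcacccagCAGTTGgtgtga
Des: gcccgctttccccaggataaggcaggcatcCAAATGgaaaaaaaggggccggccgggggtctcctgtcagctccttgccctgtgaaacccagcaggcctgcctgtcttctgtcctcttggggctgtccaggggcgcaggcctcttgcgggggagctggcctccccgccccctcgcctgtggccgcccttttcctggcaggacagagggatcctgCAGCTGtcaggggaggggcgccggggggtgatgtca
Acta1: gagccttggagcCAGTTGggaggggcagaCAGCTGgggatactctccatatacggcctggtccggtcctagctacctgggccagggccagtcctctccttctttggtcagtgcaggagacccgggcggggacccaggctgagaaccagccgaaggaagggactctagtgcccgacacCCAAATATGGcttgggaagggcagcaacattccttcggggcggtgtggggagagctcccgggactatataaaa
Myh3: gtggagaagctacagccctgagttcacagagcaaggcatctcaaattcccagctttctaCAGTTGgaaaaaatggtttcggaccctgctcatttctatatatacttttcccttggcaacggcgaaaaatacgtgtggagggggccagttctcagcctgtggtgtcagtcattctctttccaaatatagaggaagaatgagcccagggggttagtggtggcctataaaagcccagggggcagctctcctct
Chrna1: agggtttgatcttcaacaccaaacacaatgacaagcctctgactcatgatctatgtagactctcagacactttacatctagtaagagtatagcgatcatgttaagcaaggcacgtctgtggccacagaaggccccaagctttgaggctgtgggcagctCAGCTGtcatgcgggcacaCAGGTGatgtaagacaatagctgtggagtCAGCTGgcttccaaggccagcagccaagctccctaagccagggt

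The *Chrna1* window holds 3 E-boxes, 2 of them with the letters CAGCTG, which begin 92 and 44 bases before the start. *Acta1* holds 2 E-boxes and the CArG box, which begins 73 bases before the start. Among the 9 of the 10 genes with an entry, 7 held an E-box, 4 held CAGCTG and 1 held a CArG box. Of all 32851 promoter windows of this length, 66.2% held an E-box, 13.0% held CAGCTG and 1.47% held a CArG box. *Myod1* was not matched. A match in letters is a description and says nothing of binding in these cells.

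The WT libraries held 25571442 to 30009361 counts and the Dp1Tyb libraries 24804539 to 26782380, and 3 counts served as the floor of detection in a library. Levels are given as CPM, a TMM-scaled share of the library, or as RPKM, which also divides by exon length. The label of every culture fitted its genotype: the 89 tested genes of the duplicated region had a median log2 ratio to the WT mean of −0.03 to 0.04 in the WT libraries and 0.46 to 0.53 in those from Dp1Tyb. By the prefix of their column names, WT 1 and Dp1Tyb 1 form one group, here called a culture set, and the other 7 form another. What the prefix stands for is not stated in the sources used here. On a first principal component over all tested genes, with 52.2% of the variance, Dp1Tyb 2 scored 54.7 and WT 2 scored 25.6. At the other end lay WT 1 at −35.2 and Dp1Tyb 3 at −23.6, with the rest between −10.3 and 3.78.

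The cultures were fibroblast-rich by their markers. Summed over 14 fibroblast markers, among them *Col1a1* and *Fn1*, which encode collagen and fibronectin of the matrix, the share of the library was between 45270 and 77452 CPM. The 10 skeletal muscle genes together took between 13.2 and 258 CPM. In bulk RNA, fewer cells of a kind and less RNA per cell cannot be told apart.

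The 4 myogenic factors were at or under the floor in every culture. *Pax7*, which marks muscle precursors and satellite cells, had 1 count in WT 3, 1 count in Dp1Tyb 1 and 0 in the other 7 cultures. *Myf5*, the first of the commitment factors to appear in the embryo, had 0 counts among all 237645974, which allows a level of up to 0.0126 CPM. *Myod1* had 0 counts in the 4 WT cultures and in Dp1Tyb 1, 2 in Dp1Tyb 2, and 1 each in Dp1Tyb 3, 4 and 5. *Myog* had 2, 1, 1 and 0 counts in WT 1 to 4, and 1, 3, 2, 2 and 1 counts in Dp1Tyb 1 to 5. Summed over the 4 factors, a culture had between 0 and 5 counts. These 4 factors were therefore not measurable in these cultures at this depth, and the values below are those of contractile and synaptic genes rather than of an identified muscle cell.

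No fold change is given for the factors, since both genotypes lay at or under the floor. The exact permutation test of CPM over 126 relabelings, two-sided by doubling the smaller tail, gave p = 0.0794 for *Myod1*, 0.159 for *Myog* and 0.889 for *Pax7*. Without Dp1Tyb 1, the *Myod1* p was 0.0286, the smallest this test can give for those cultures, in a comparison of 0 with 1 or 2 counts.

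**Figure D1:**
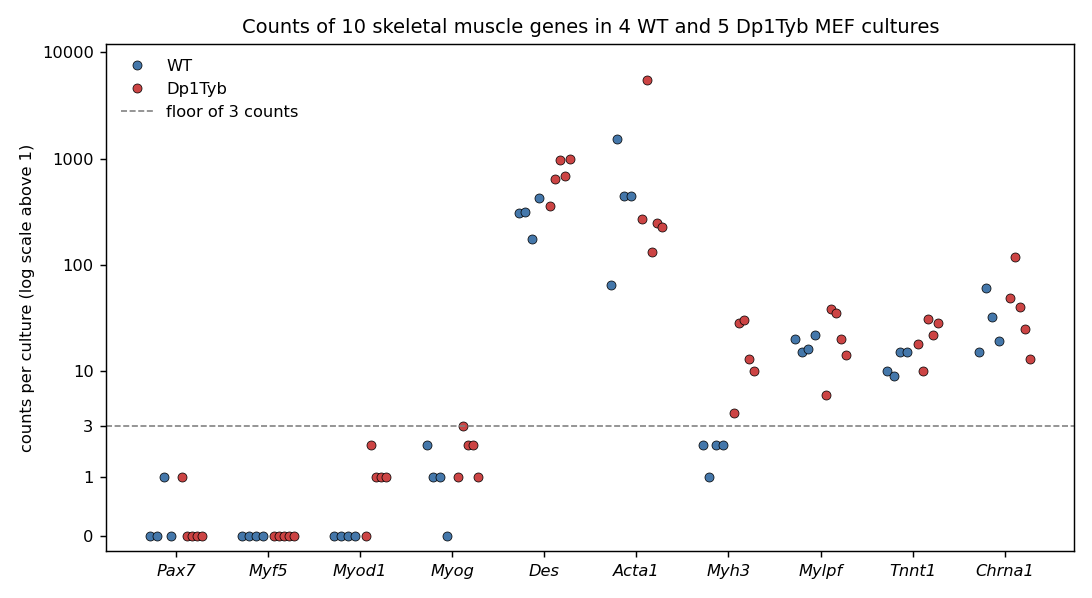
Counts (log scale above 1) of the 10 genes, one point per culture from replicate 1 on the left of each group, WT in blue and Dp1Tyb in red; the dashed line is the floor of 3 counts. The 4 factors lie on or under the line in every culture, and *Myh3* is the gene whose genotypes do not overlap.

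*Des* encodes desmin, the intermediate filament that ties myofibrils together and that smooth muscle also makes. It had 306, 314, 174 and 424 counts in WT 1 to 4, and 354, 645, 961, 691 and 990 counts in Dp1Tyb 1 to 5. Scaled to library size, 4 of the 5 Dp1Tyb cultures lay above the highest WT culture, and Dp1Tyb 1, at 12.9 CPM, lay within the WT range of 6.70 to 16.1 CPM. The mean was 11.2 CPM ± 3.99 (SD, n = 4) in WT and 28.5 CPM ± 10.0 (SD, n = 5) in Dp1Tyb, a log2 fold change of 1.35 (SE 0.33, 95% interval 0.60 to 2.10). In edgeR's quasi-likelihood test the unadjusted p was 0.00253 and the Benjamini-Hochberg adjusted p over all 14567 tested genes 0.547. Within the larger culture set alone the log2 fold change was 1.47 (adjusted p = 0.443, edgeR).

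*Myh3* encodes the embryonic myosin heavy chain, made by developing fibres. It had 2, 1, 2 and 2 counts in WT 1 to 4, all under the floor, and 4, 28, 30, 13 and 10 counts in Dp1Tyb 1 to 5. The genotypes did not overlap, with all Dp1Tyb values higher, a pattern shown by 0.686% of all tested genes. Pooled by genotype there were 7 and 85 counts, a ratio of 10.1 with a counting interval of 4.68 to 25.8, which leaves out the spread between cultures. The fitted log2 fold change was 3.30 (SE 0.68), with an unadjusted p of 0.000727 and an adjusted p of 0.252 in edgeR. The gene passed edgeR's filter on low counts only through the Dp1Tyb cultures, and it was no longer tested once any one of them was left out. Its highest level was 1.15 CPM, in Dp1Tyb 2, and the culture of the smaller set, Dp1Tyb 1, was the Dp1Tyb culture nearest to WT.

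*Mylpf* and *Tnnt1* code for parts of the sarcomere that differ between fibre types, the regulatory light chain of fast fibres and the troponin T of slow fibres. *Mylpf* had 20, 15, 16 and 22 counts in WT 1 to 4, and 6, 38, 35, 20 and 14 counts in Dp1Tyb 1 to 5. Dp1Tyb cultures were thus both the highest and the lowest for *Mylpf*, with a log2 fold change of 0.42 (SE 0.48, 95% interval −0.65 to 1.48). *Tnnt1* had 10, 9, 15 and 15 counts in WT, and 18, 10, 31, 22 and 28 counts in Dp1Tyb. All Dp1Tyb cultures except Dp1Tyb 2 were above the WT range, with a log2 fold change of 0.90 (SE 0.35, 95% interval 0.11 to 1.70, unadjusted p = 0.0298 and adjusted p = 1.00 in edgeR).

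*Acta1*, the skeletal muscle actin, was the most abundant of the 10 genes and the most variable. It had 65, 1517, 449 and 441 counts in WT 1 to 4, and 271, 5457, 132, 247 and 225 counts in Dp1Tyb 1 to 5. In both genotypes the culture numbered 2 was highest, at 59.5 CPM in WT and 223 CPM in Dp1Tyb, and over all 9 cultures the highest level was 109 times the lowest. The other 4 Dp1Tyb cultures, between 4.99 and 10.3 CPM, lay within the range of the WT cultures. The log2 fold change of 1.11 had an SE of 1.27 and a 95% interval of −1.74 to 3.96. Without Dp1Tyb 2 it was −1.49, and without both cultures numbered 2 it was −0.50, so 1 culture set its direction.

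*Chrna1*, the alpha subunit of the muscle acetylcholine receptor, had 15, 61, 32 and 19 counts in WT 1 to 4, and 49, 119, 40, 25 and 13 counts in Dp1Tyb 1 to 5. The cultures numbered 2 were again the highest of their genotype, while Dp1Tyb 5 had the fewest counts of all. The log2 fold change was 0.69 (SE 0.66, 95% interval −0.79 to 2.17). It was 0.02 without Dp1Tyb 2.

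Of the 6 tested genes, 0 were called at an adjusted p below 0.05 in edgeR, where 0.165% of all tested genes were called, each of them higher in Dp1Tyb. An unadjusted p below 0.05 was reached by 3 of the 6, all higher in Dp1Tyb, and by 3.13% of all tested genes, 1.36% in that direction. The log2 fold change was above 0 in 6 of the 6 and in 51.0% of all tested genes, with a median of 1.01 against 0.00 over all tested genes. At least 2-fold higher in Dp1Tyb were 3 of the 6, against 0.391% of all tested genes, but *Acta1* is among the 3 and its direction turned without Dp1Tyb 2. DESeq2 gave an adjusted p to 7 of the 10 genes and called 2, *Des* (log2 fold change 1.36, adjusted p = 0.0138) and *Myh3* (3.40, adjusted p = 0.0129), where it called 0.332% of the genes to which it gave an adjusted p. Its call thus differed from that of edgeR on the same counts, while the fold changes were close. The 6 that passed the filter are not all 10 genes, and *Myh3* is among them because it was higher in one genotype. The 10 genes were also chosen with earlier results of these data known, so their shares are descriptions and test nothing.

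**Figure D2:**
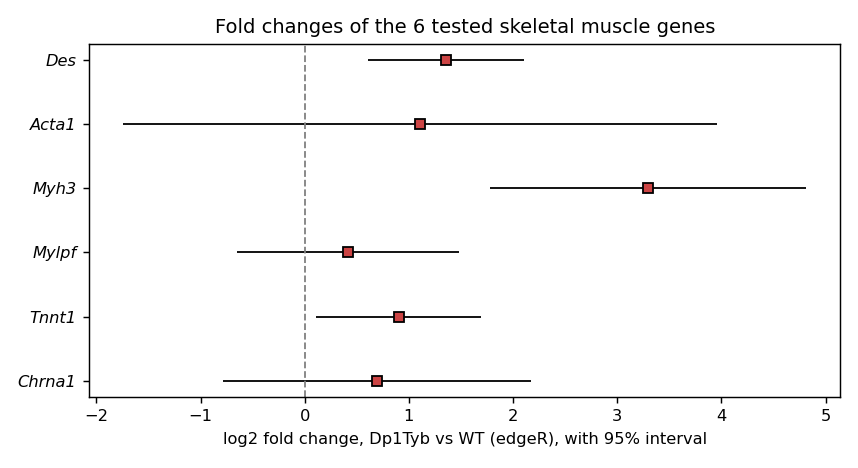
Log2 fold change, Dp1Tyb vs WT, of the 6 tested genes from edgeR (squares) with 95% intervals (lines); the dashed line is no change. All 6 squares lie right of 0, and the intervals of *Des*, *Myh3* and *Tnnt1* lie wholly right of it, with no adjusted p below 0.252.

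Ordered by mean RPKM over the 9 cultures, *Acta1* (24.9) came first, followed by *Des* (5.49), *Mylpf* (0.741), *Chrna1* (0.364), *Tnnt1* (0.303), *Myh3* (0.0650), *Myog* (0.0367), *Myod1* (0.0116), *Pax7* (0.0014) and *Myf5* (0). Of neighbours in this order, *Des* and *Mylpf* were the one pair whose ranges over cultures did not overlap. *Acta1* was above *Des* in 5 of 9 cultures, and the rank of these 2 genes thus changed with the culture. On the log2(CPM + 1) scale the SD of *Acta1* was at the 99.9th percentile of all tested genes within each genotype. *Chrna1* (93.4 in WT, 96.5 in Dp1Tyb) and *Des* (92.0 and 94.1) were also among the more variable genes, whereas *Tnnt1* (36.3 and 71.0) was not. *Mylpf* (17.7 and 88.8) and *Myh3* (0.302 and 86.5) were low in WT and high in Dp1Tyb. Adding 1 holds the SD near 0 at levels far under 1 CPM, as for *Myh3* in WT (0.039 to 0.077 CPM). Its WT percentile is thus set by the floor and does not measure stability. The SDs of *Mylpf* and *Tnnt1*, mostly under 1 CPM, are compressed too. The median SD of the 6 genes was 0.31 in WT and 0.52 in Dp1Tyb cultures, against 0.18 and 0.17 for all tested genes.

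The level of *Acta1* moved across cultures with the sum of smooth muscle markers, a sum made up mostly of *Acta2* and *Tagln*. Those markers include *Acta2*, the actin of smooth muscle and of activated fibroblasts, which lay between 851 and 4416 CPM, and *Tagln*, an actin-binding protein, between 474 and 2614 CPM. WT 1 was lowest and Dp1Tyb 2 highest for *Acta1*, *Acta2* and *Tagln* alike, and WT 2 was second in each. On the log2(CPM + 1) scale, *Acta1* and the sum of 10 smooth muscle markers gave Pearson's r = 0.937 over 9 cultures (exact permutation p = 0.000612, adjusted p = 0.0330 over 54 relations of the 6 genes with 9 marker lists). Spearman's rho was 0.717 (exact permutation p = 0.0369, adjusted p = 0.332). Without WT 1 and Dp1Tyb 2, farthest from the median, r was 0.857, and within the larger culture set 0.951, while the other set holds 2 cultures and gives no value. Centred within each genotype, r was 0.958, and without both cultures numbered 2 it was 0.880. Taken singly, the tested markers ranged from *Tagln* (r = 0.968) and *Cnn1* (0.950) down to *Synpo2* (0.427) and *Smtn* (−0.090).

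Many other genes followed *Acta1* over the same cultures. *Tagln* ranked 128 and *Acta2* 849 by correlation with it among the tested genes, and the nearest were *Atp5b*, a subunit of mitochondrial ATP synthase (r = 0.993), *Fgd3* (0.993) and *Aldoa*, a glycolytic aldolase (0.991). Without both cultures numbered 2, r was 0.967 with *Atp5b* and 0.968 with *Aldoa*, against 0.880 with the smooth muscle sum over the same 7 cultures. These are descriptions, and no difference between them was tested. Of the 54 relations, 2 others had an adjusted p below 0.05 by Pearson's r, and none by Spearman's rho. *Chrna1* with endothelial markers gave r = 0.890 (exact permutation p = 0.00136, adjusted p = 0.0368), 0.617 without the cultures numbered 2 and 0.970 in the larger culture set, with a rho of 0.733 (exact permutation p = 0.0311, adjusted p = 0.332). Of these markers *Kdr* had the highest mean CPM, and it was highest in Dp1Tyb 2 (373 counts) and WT 2 (343 counts), as *Chrna1* was. *Cdh5* and *Pecam1* were instead highest in Dp1Tyb 3 (26 and 15 counts). *Acta1* with the sum of fibroblast markers gave r = −0.864 (exact permutation p = 0.00259, adjusted p = 0.0467), −0.442 without the cultures numbered 2 and −0.935 in the larger set, with a rho of −0.783 (exact permutation p = 0.0172, adjusted p = 0.332). Taken singly, these markers split in direction, from *Col3a1* (r = −0.973) and *Col1a2* (−0.954) to *Vim* (0.889) and *S100a4* (0.897).

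**Figure D3:**
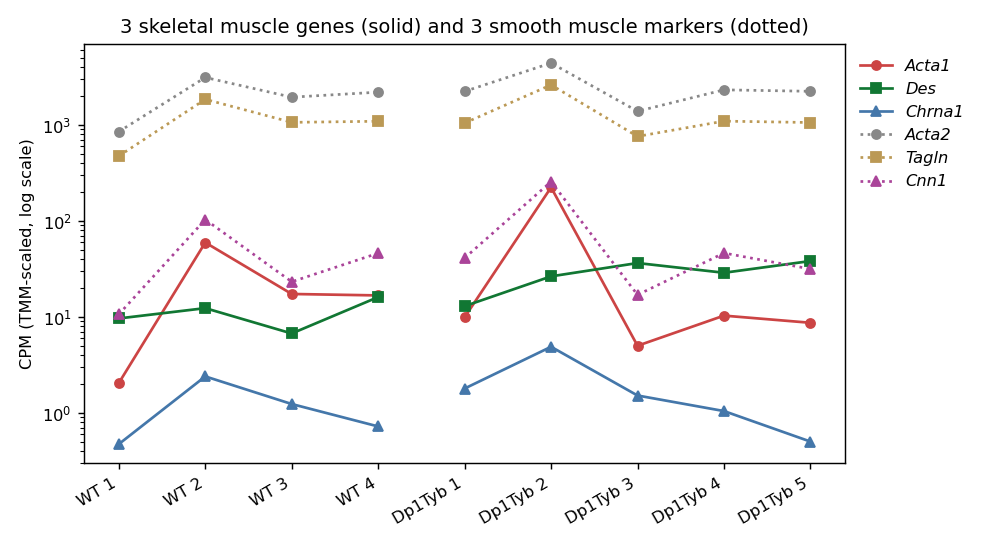
Level (CPM, TMM-scaled, log scale) of *Acta1*, *Des* and *Chrna1* (solid lines) and of the smooth muscle markers *Acta2*, *Tagln* and *Cnn1* (dotted lines) in each of the 9 cultures; lines join cultures of one genotype for reading and carry no order. *Acta1* and the 3 markers share their lowest culture, WT 1, and peak in WT 2 and Dp1Tyb 2, while *Des* is highest in Dp1Tyb 5.

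Between the 6 genes themselves, 0 of 15 pairs had an adjusted p below 0.05. *Acta1* and *Chrna1* gave the highest r of the pairs, 0.844 (exact permutation p = 0.00554, adjusted p = 0.0759), with a rho of 0.667 (exact permutation p = 0.0589, adjusted p = 0.294). This relation rested on Dp1Tyb 2 and WT 2, for r was 0.283 without them, and it was 0.854 within the larger culture set and 0.866 once centred within genotype. The cultures with most *Acta1* were not those with most *Des*: the pair gave r = 0.0447 (exact permutation p = 0.912) and rho = −0.233 (exact permutation p = 0.552). *Des* and *Tnnt1* gave r = 0.711 (exact permutation p = 0.0384, adjusted p = 0.144), 0.759 without Dp1Tyb 5 and WT 3, 0.667 within the larger set and 0.414 once centred within genotype, with a rho of 0.717 (exact permutation p = 0.0369, adjusted p = 0.294). No pooled r is given for *Myh3*, since its values fall apart by genotype. Once centred within genotype, 2 of the 15 pairs had an adjusted p below 0.05, *Acta1* with *Chrna1* and *Myh3* with *Mylpf*, the latter with r = 0.975 from values under the floor in WT.

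A pattern for the 6 genes was formed as their mean z-score, which was highest in Dp1Tyb 2 (1.20) and Dp1Tyb 3 (0.81) and lowest in WT 1 (−0.96). It includes *Myh3*, which passed the filter only through Dp1Tyb, so the r values below also carry the split of that gene by genotype and are descriptions. Among 30 other tested genes of the muscle lists, the 8 most like it were *Neb* (r = 0.856), *Tnni1* (0.824), *Rapsn* (0.754), *Myl4* (0.748), *Myom1* (0.726), *Ldb3* (0.680), *Chrnb1* (0.612) and *Klhl41* (0.556), over 9 cultures. *Neb* encodes nebulin, which spans the thin filament, and had 13 to 31 counts. Outside the lists, *Gm7334* (0.954), *Calcrl* (0.944), *Sfr1* (0.936), *Slc30a6* (0.936), *Mrpl32* (0.935), *Ube2b* (0.933), *Ptp4a2* (0.928) and *Got1* (0.928) were nearest.

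The wider muscle programme was read from 83 genes in 5 lists, the 10 genes included. Of the 83, 18 were at or under the floor in every culture and 47 had a mean below 10 counts, 36 were tested and 0 were called in edgeR, with 3 at an unadjusted p below 0.05, against 3.13% of all tested genes. Without the 10 genes, 30 were tested, 0 of them at an unadjusted p below 0.05 and 17 with a log2 fold change above 0, which is close to the 51.0% of all tested genes, and the median was 0.06 on the log2 scale. The difference between this median and that of the 6 genes was not tested.

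Other myogenic regulators were measurable. *Eya1*, a cofactor in the specification of many embryonic tissues, had 182 to 419 counts, and *Mef2c*, a cofactor of the myogenic factors that other lineages also use, had 173 to 661. *Pax3*, a relative of *Pax7* in embryonic precursors, had 18 to 59 counts and *Cdh15*, the M-cadherin of muscle cells, 5 to 24, both added after their values were seen. The *Eya1* and *Mef2c* log2 fold changes were −0.32 (SE 0.16) and −0.43 (SE 0.23). Of the 15 genes of this list, 7 were at or under the floor in every culture, 7 were tested, and 2 of those had a log2 fold change above 0, against 51.0% of all tested genes.

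Of 36 sarcomere genes, 16 were tested, 13 with a log2 fold change above 0 (51.0% of all tested genes) and a median of 0.48. An unadjusted p below 0.05, higher in Dp1Tyb, was reached by 3 of the 16 (1.36% of all tested genes), namely *Des*, *Tnnt1* and *Myh3*, of which *Myh3* passed the filter only through Dp1Tyb. The most abundant others per length were *Tnnc1*, the calcium-binding troponin of slow and cardiac muscle (41 to 80 counts, log2 fold change −0.13), *Actn3*, the alpha-actinin of fast fibres (45 to 82 counts, 0.41), and *Myom1*, a protein of the M-band (94 to 442 counts, 0.58). None of these 3 passed the test. *Myom1* was highest in the cultures numbered 2, with 309 counts in WT 2 and 442 in Dp1Tyb 2.

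At the neuromuscular junction, *Chrnb1*, the beta subunit that partners that of *Chrna1* in the receptor, had 175 to 387 counts and *Rapsn*, which clusters the receptor, 10 to 24. *Dok7*, an activator of the junction's kinase, had 1 to 9 counts and was not tested. Of the 8 genes of this list, 3 were tested, each with a log2 fold change above 0 (51.0% of all tested genes) and 0 called (0.165% of all tested genes). For excitation-contraction coupling, 5 of 13 genes were tested, with *Jph2* (411 to 1382 counts) and *Jph1* (80 to 142), junction proteins between membrane systems, and *Cacnb1* (130 to 367), a calcium channel subunit, at log2 fold changes of 0.38, 0.01 and −0.22. Of 11 genes of the muscle membrane and metabolism, 5 were tested, and *Eno3*, *Pgam2* and *Cav3*, a pair of glycolytic enzymes and a caveolin, had log2 fold changes of −0.07, −0.56 and −0.90, none past the test.

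**Figure D4:**
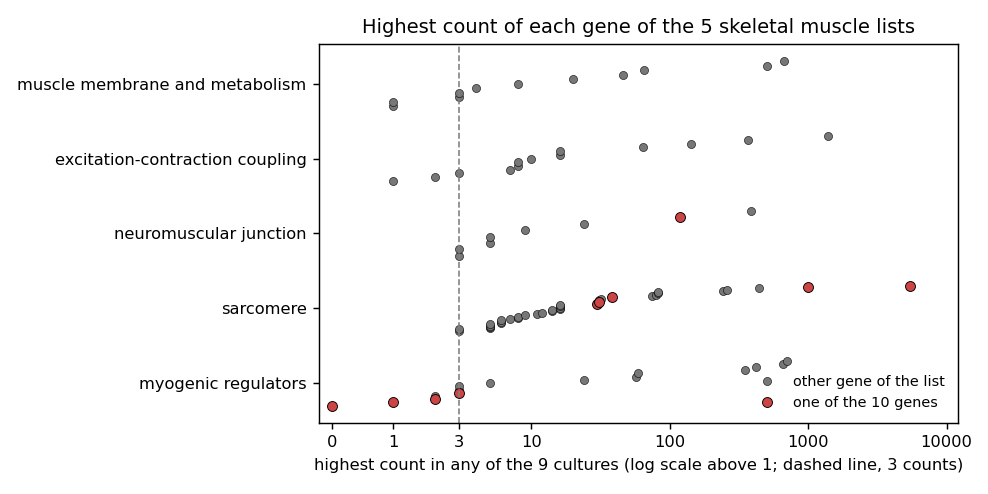
Highest count in any of the 9 cultures (log scale above 1) of each gene of the 5 muscle lists, one point per gene, with the 10 genes in red and the others in grey; the dashed line marks 3 counts. Of the 83 genes, 18 never exceed the line, and the myogenic regulators hold 7 of them.

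Low sarcomere genes were also read in a fit with no filter on low counts, chosen here because 47 of the 83 genes had not been tested. There, 10 of 82 muscle genes had an unadjusted p below 0.05, all higher in Dp1Tyb, against 1.2% of the 24467 genes with a count in that direction, and 0 had an adjusted p below 0.05 in edgeR. Beside *Des*, *Myh3*, *Tnnt1* and *Myod1*, they were *Myl1*, *Actc1*, *Myh8*, *Xirp2*, *Smpx* and *Cacng1*, named after their values were seen. *Myl1*, the alkali light chain of fast fibres, had 1 to 3 counts in WT and 5 to 14 in Dp1Tyb. *Actc1*, the cardiac actin that embryonic skeletal muscle also makes, had 0 to 5 and 3 to 14 counts, and *Myh8*, the perinatal myosin, 1 to 4 and 1 to 16. Of the same list, *Myh1* and *Myh2* went the other way, also named after their values were seen. *Myh1* had 17 to 241 counts in WT and 8 to 87 in Dp1Tyb (log2 fold change −1.43 in the filtered fit). *Myh2* had 6 to 82 and 4 to 32 counts (−1.30), and neither reached an unadjusted p below 0.05 in edgeR. *Smpx* and *Cacng1* did not exceed 3 counts. Summed over the 47 untested genes, the WT cultures had 111, 107, 115 and 77 counts and Dp1Tyb 1 to 5 had 94, 193, 196, 123 and 131, so that 4 of the 5 Dp1Tyb cultures were above the WT range. No such sum was made for other untested genes, so whether this is particular to muscle genes was not tested.

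Markers of other cells moved with genotype or culture beside these results. Smooth muscle markers summed to between 1457 and 5279 CPM in WT and between 2295 and 7605 CPM in Dp1Tyb, with 9 of 10 tested, 9 of the 9 with a log2 fold change above 0 (51.0% of all tested genes) and 0 called. Schwann and neural crest markers, led by *Ngfr* and *Sox10*, summed to between 61.9 and 131 CPM in WT and between 20.6 and 59.2 CPM in Dp1Tyb. Of the 7 tested, 5 had an unadjusted p below 0.05, lower in Dp1Tyb, against 1.77% of all tested genes in that direction, and 0 were called. *S100b* went the other way, with a log2 fold change of 0.15. Macrophage markers, led by *Lyz2* and *C1qb*, ranged from 74.5 to 281 CPM in WT and from 17.4 to 424 CPM in Dp1Tyb. Endothelial markers, led by *Egfl7* and *Kdr*, lay between 10.8 and 19.8 CPM in WT and between 10.5 and 24.6 CPM in Dp1Tyb, with 5 of 8 tested and 0 called. Of the 5, 1 had an unadjusted p below 0.05, higher in Dp1Tyb, against 1.36% of all tested genes in that direction. That gene was *Emcn*, with 3 to 20 counts in WT and 20 to 66 in Dp1Tyb (log2 fold change 1.77, unadjusted p = 0.0126, adjusted p = 1.00 in edgeR), and the defining *Cdh5*, not tested, had 0 to 6 and 5 to 26 counts. The other tested endothelial markers had log2 fold changes of 0.41 (*Esam*), 0.24 (*Egfl7*), −0.07 (*Kdr*) and −0.18 (*Tek*).

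Cardiac markers came to between 4.05 and 6.66 CPM, led by *Tnni3* and *Nppb*, and the defining *Nkx2-5*, *Myl2* and *Myl7* had at most 1, 2 and 3 counts in a culture. Cartilage markers, led by *Sox9* and *Comp*, lay between 32.4 and 65.8 CPM, epithelial markers, led by *Krt18* and *Krt8*, between 8.67 and 20.6 CPM and adipocyte markers, led by *Fabp4* and *Pparg*, between 11.3 and 18.4 CPM. The part of any of these cells in the values of the 10 genes was not tested.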

How the data were processed

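RNA was sequenced from 9 MEF cultures by the authors, who used a stranded mRNA kit. Adapters were trimmed with Trim Galore, reads were mapped to GRCm38 with TopHat 2.0.12, those with several alignments were discarded, and HTSeq counted the rest. The strand setting and annotation release are not given in the sources used here. The deposited count table holds raw counts per Ensembl gene. Normalised counts and the authors' own comparison, with fold changes and p-values, were not used.

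Genes were matched to GENCODE M21 (42462 of 43629), whose exons gave lengths. The fit used edgeR 4.0.16 in R 4.3.3 with TMM scaling, edgeR's filter, no covariate and a two-sided quasi-likelihood test, with Benjamini-Hochberg adjustment over 14567 genes at 0.05. It was tested on simulated data. Permutations and correlations used log2(CPM + 1) or CPM in Python 3.11.15 with scipy 1.17.1. The members and lists were chosen with earlier results of these data known. Named are the 10 genes, the 3 most abundant others per length of each muscle list and any called, the leading 2 of each cell type list, and the 8 genes nearest in pattern inside and outside the lists. One gene that this rule takes is not reported here. Alternatives were DESeq2 1.42.0, other scalings and filters, culture set, replicate block and each culture left out. Cultures came from separate embryos, one each. The counting interval of the pooled *Myh3* ratio and the floors cover counting error only. Intervals of the log2 fold changes come from the edgeR fit and also carry the spread between cultures. *Des* shares 220 of 3754 exon bases with antisense *Gm15179*, which had 0 counts.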

Additional observations from a re-analysis of the deposited data

Results flagged for a closer look

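*Acta1* in Dp1Tyb replicate 2 lay far from the other Dp1Tyb cultures, at 223 CPM against 10.3 CPM in the next, a gap of 0.976 of the range of the group. *Mylpf* in WT replicate 4 lay apart as well, at 0.834 CPM against 0.629 CPM, or 22 against 20 counts. Of 12 groups checked these 2 stood out, and chance marks about 1 group in 20. Dp1Tyb replicate 2 also had the most extreme score on the first principal component over all tested genes.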

How the results depend on the processing

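The number of the 10 genes called, and of the 83 muscle genes called, was 0 in edgeR under every alternative, and 2 with DESeq2 (*Des*, log2 fold change 1.36, and *Myh3*, 3.40). A filter of 10 counts in every culture left 3 of the 10 genes to test. *Acta1* had a log2 fold change of −1.49 without Dp1Tyb replicate 2 and, in an alternative chosen after seeing the data, −0.50 without both cultures numbered 2, and DESeq2 gave it no p. Leaving out 1 culture at a time, 4 to 6 genes had a log2 fold change above 0, with 5 genes tested where a Dp1Tyb culture was missing. *Acta1* then ranged from −1.49 to 2.10, *Des* from 1.17 to 1.59, *Chrna1* from 0.02 to 1.27 and *Myh3*, where tested, from 3.14 to 3.39. Of the 4 factors, 0 to 1 reached a permutation p below 0.05 (*Myod1*, difference 0.050 CPM without Dp1Tyb replicate 1). *Pax7*, at 1 count in each genotype, had differences of −0.0096 to 0.0073 CPM, the highest without WT replicate 3. Pairs of genes with an adjusted p below 0.05 numbered 2 once centred within genotype, and 0 to 3 with a culture left out. Same-numbered cultures had correlations of deviations of 0.259, 0.741, 0.0315 and 0.378, so 1 of 4 pairs stayed under 0.1 and the numbers were not taken as pairs, though 4 of 8 cultures correlated best with their own number. With a replicate block, 0 of all genes and 0 of the 10 were called, with 4 of the 10 at an unadjusted p below 0.05 and *Acta1* at 0.43. Of all genes, 24 were called in edgeR, 67 with DESeq2, 1 within the larger culture set, 10 without both cultures numbered 2, and 2 to 26 with a culture left out.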
